A study of Bos taurus with 11 samples.

Results

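The acetyl-CoA carboxylase genes ACACA (ENSBTAG00000017567) and ACACB (ENSBTAG00000022058) were followed in the liver RNA of lactating dairy cows. They are 2 of the 21996 Ensembl genes that had been counted, and they were picked by name, with the study's account of both genes in these same cows already known. The study had called both as changed. Their directions, that of their ratio and any call of either gene here are therefore not independent evidence. ACACB was identified by its Ensembl identifier, and ACACA by the name columns of the study's gene list. The livers came from multiparous Holstein-Friesian cows that the labels place 14 days after calving. The study's methods give a range of days in each group, with slaughter timed by the first follicular wave. The 5 cows in mild negative energy balance (MNEB) had been fed ad libitum and were milked less often. The other 6, in severe negative energy balance (SNEB), received a restricted diet and were milked more often, so diet and milking cannot be told apart. Within each feeding group the cows had been selected for extremes of energy balance. Polyadenylated RNA of each cow had been sequenced as single reads, and the cows carried no other treatment.

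Acetyl-CoA carboxylases are biotin-dependent enzymes that turn acetyl-CoA into malonyl-CoA. ACACA encodes the cytosolic form, whose malonyl-CoA is the building block that fatty acid synthase adds to a growing chain. ACACB encodes a form held at the outer mitochondrial membrane, whose malonyl-CoA inhibits carnitine palmitoyltransferase 1 and so limits the entry of fatty acids into mitochondria for oxidation. AMP-activated protein kinase phosphorylates and inhibits both forms. In ruminants most fatty acid synthesis takes place in adipose tissue and the mammary gland, and little in liver.

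The 19 sequencing lanes lay on 3 flow cells, and lanes of 1 cow were summed. Reads on genes numbered from 1774011 to 4005322 per MNEB cow and from 1869837 to 6852142 per SNEB cow, and the groups were not shown to differ in depth (exact permutation test, two-sided, p = 0.381). Levels are given as CPM, the count scaled to a common total of reads on genes, after TMM scaling. A gene needed 5 reads in some cow to be tested, which 13960 genes had. The test was the quasi-likelihood test of edgeR, and a gene was called at a Benjamini-Hochberg adjusted p under 0.1. Of 9 hepatocyte marker genes, 0 had an identifier among the names used here, so the labelled tissue was not checked against them. In whole liver, fewer cells of a type and less RNA per cell cannot be told apart.

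Reads on ACACA made up a smaller part of the liver transcriptome in SNEB cows, and reads on ACACB a larger part in most of them. ACACA averaged 120.8 ± 30.9 CPM over the 5 MNEB cows and 66.2 ± 21.9 CPM over the 6 SNEB cows. ACACB averaged 9.39 ± 4.54 CPM and 31.3 ± 24.0 CPM over the same cows. Errors after ± are SDs over the cows of a group throughout. Neither gene passed the test on its own (0 of 2, against 0.544% of all genes tested). Both had an unadjusted edgeR p under 0.05 (against 8.35%), and DESeq2 called both (against 2.08%). The study had itself called both genes in these same cows with DEseq, so these p-values and calls are not independent evidence. The ratio of the genes within a cow was higher in most SNEB cows and passed its own test over all cows. It did not pass on the fewer cows of flow cell B or of C alone, and flow cell A held 1 cow of each group. With cows compared by number, 5 pairs can give no sign-flip p below 0.0625, so that test could not pass a limit of 0.05. The genes were picked with their directions in these cows known, which the test over all cows does not take into account.

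**Figure D1:**
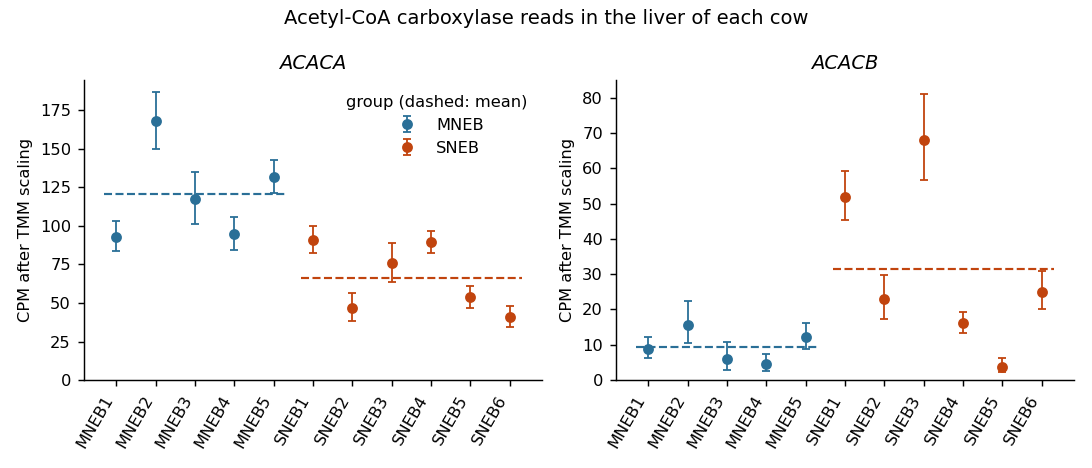
CPM after TMM scaling of ACACA (left) and ACACB (right) in each of the 11 cows. Points are cows, bars are exact 95% Poisson intervals that cover counting error only, and dashed lines are group means. All SNEB cows lie below the MNEB cows for ACACA by a narrow margin. For ACACB 5 of 6 lie above them, SNEB4 by a narrow margin, while SNEB5 lies lowest of all.

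For the cytosolic form ACACA, MNEB cows had 198 to 521 reads each and SNEB cows 112 to 620. Its level was 92.7 CPM in MNEB1, 167.8 in MNEB2, 117 in MNEB3, 94.6 in MNEB4 and 132 in MNEB5. In the SNEB group it was 90.8 CPM in SNEB1, 46.7 in SNEB2, 75.6 in SNEB3, 89.4 in SNEB4, 53.7 in SNEB5 and 41.0 in SNEB6. Every SNEB cow thus lay below every MNEB cow, which held in this direction for 0.537% of the genes tested and in either direction for 1.3%. The margin was narrow. SNEB1 had 90.8 CPM (exact 95% Poisson interval 82.1 to 100) and MNEB1 92.7 (83.6 to 103), intervals that overlap. With CPM computed from totals alone, SNEB1 had 95.1 CPM and exceeded the lowest MNEB cow, MNEB4, at 94.1 CPM, so that 5 of 6 SNEB cows lay below the MNEB group.

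The log2 fold change of ACACA, SNEB over MNEB, was -0.86 (SE 0.23, 95% confidence interval -1.35 to -0.37, edgeR adjusted p = 0.182). This is a level 1.81-fold higher in MNEB cows. By unadjusted p-value (0.00211) the gene ranked 161 of 13960. The SNEB cows fell into a higher set of values, SNEB1, SNEB3 and SNEB4 at 75.6 to 90.8 CPM, and a lower one, SNEB2, SNEB5 and SNEB6 at 41.0 to 53.7 CPM. SNEB1, of the higher set, and SNEB5 and SNEB6, of the lower, had all been run on both flow cells B and C. In the higher set SNEB3 had been run on B alone and SNEB4 on A alone, and in the lower SNEB2 on C alone. The sets were picked after the values were seen, and the part of the flow cell in them was not tested.

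For the mitochondrial form ACACB, MNEB cows had 10 to 48 reads each and SNEB cows 16 to 229. Its level was 8.83 CPM in MNEB1, 15.6 in MNEB2, 5.91 in MNEB3, 4.48 in MNEB4 and 12.1 in MNEB5. It was 52.0 CPM in SNEB1, 22.95 in SNEB2, 68.1 in SNEB3, 16.2 in SNEB4, 3.81 in SNEB5 and 25.1 in SNEB6. Thus 5 of the 6 SNEB cows lay above the highest MNEB cow, and SNEB5, on 16 reads, lay below the lowest. The margin was narrow here too. SNEB4 had 16.2 CPM (exact 95% Poisson interval 13.3 to 19.4) and MNEB2 15.6 (10.5 to 22.3). The intervals of SNEB2 (17.3 to 29.9) and SNEB6 (20.2 to 30.8) also overlapped that of MNEB2. The groups thus overlapped, while SNEB lay wholly above MNEB for 0.766% of the genes tested. The log2 fold change was 1.72 (SE 0.56, 95% confidence interval 0.51 to 2.93, edgeR adjusted p = 0.320), a 3.29-fold higher level in SNEB cows. By unadjusted p-value (0.00878) ACACB ranked 382 of 13960.

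The call of ACACB turned on SNEB5 and on the test used. With all cows, DESeq2 called it (log2 fold change 1.74, adjusted p = 0.0674) and edgeR did not. DESeq2 called more genes of any kind, 290 against 76 with edgeR. Without that cow the level in the SNEB group was 36.9 ± 22.2 CPM (SD, n = 5), and the log2 fold change was 1.96 (SE 0.43, edgeR adjusted p = 0.0954). The same cow had a low level of ACACA, 53.7 CPM, so it lay with the SNEB cows in ACACA and not in ACACB. Without it, ACACA had a log2 fold change of -0.80 (edgeR adjusted p = 0.315).

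The cow-to-cow spread of ACACB was wide, above all among the SNEB cows. On the log2 scale, after a prior count of 2, its SD was 1.40 over the SNEB cows, at the 99.5th percentile of the 10847 genes with a mean of at least 20 reads per cow. Over the MNEB cows it was 0.69, at the 92.1st percentile. ACACB had 69.9 reads per cow on average. Its variance over the SNEB cows was 68.7 times that of Poisson counting, where the median gene had 5.28 times. Over the MNEB cows it was 5.46 times, below the 6.35 times of the median gene. For the same relative spread between cows this multiple grows with the reads on a gene. Genes of unlike depth, and groups of unlike level, are therefore not directly comparable by it. For ACACA the SD was 0.49 in SNEB cows (87.7th percentile) and 0.35 in MNEB cows (55.9th percentile), and its variance was 31.2 and 18.9 times that of Poisson counting. From the lowest to the highest cow, ACACB spanned 17.9-fold in SNEB and 3.48-fold in MNEB cows, and ACACA 2.21-fold and 1.81-fold. The low end of ACACB in SNEB was SNEB5 at 3.81 CPM, and the other SNEB cows ran from 16.2 to 68.1 CPM. How far the SNEB spread rests on SNEB5 was not tested.

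The balance of the forms was then taken within each cow, as the share of ACACB among the reads on both genes. This measure does not depend on library scaling. Gene lengths were not used here, so a share of reads is not a share of transcripts, and only its change between cows is compared. In MNEB cows ACACB held 8.70% of these reads in MNEB1, 8.50% in MNEB2, 4.81% in MNEB3, 4.52% in MNEB4 and 8.44% in MNEB5. In SNEB cows it held 36.4% in SNEB1, 32.9% in SNEB2, 47.4% in SNEB3, 15.3% in SNEB4, 6.64% in SNEB5 and 37.9% in SNEB6. In SNEB3 the genes were counted almost equally, with 141 reads on ACACA and 127 on ACACB, whereas MNEB4 had 317 and 15.

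The exact 95% Clopper-Pearson intervals of these shares cover counting error only. The highest upper bound of an MNEB cow was 11.9%, and 5 of the 6 SNEB cows had a lower bound above it, the lowest being 12.8% for SNEB4. The interval of SNEB5, 3.84% to 10.6%, lay among those of the MNEB cows. The share averaged 6.99% ± 2.13 over the MNEB and 29.4% ± 15.3 over the SNEB cows, or 34.0% ± 11.7 (SD, n = 5) without SNEB5.

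**Figure D2:**
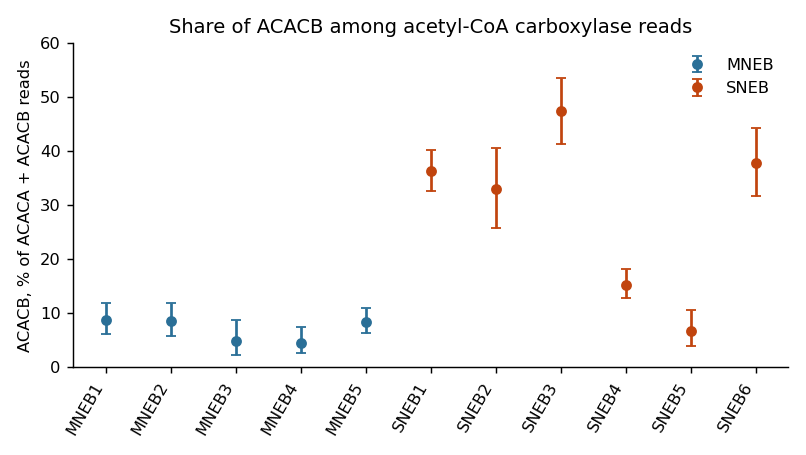
Share of ACACB among the reads on ACACA and ACACB together, in percent, in each cow, with exact 95% Clopper-Pearson intervals. The MNEB cows sit between 4.52% and 8.70%, and the SNEB cows between 15.3% and 47.4% except SNEB5 at 6.64%.

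As a log2 ratio of ACACB to ACACA reads, with 0.5 reads added to each, the balance averaged -3.76 ± 0.49 over the 5 MNEB and -1.49 ± 1.36 over the 6 SNEB cows. The difference of 2.28 on the log2 scale is a 4.84-fold higher ratio in SNEB cows. Its two-sided exact permutation p over all splits of the cows was 0.0173 (0.0346 after adjustment over the ratio and the sum of the genes). Neither value allows for the genes having been picked with their opposite directions in these cows known. The ratio was higher than in every MNEB cow in 5 of 6 SNEB cows. Leaving out single cows, the difference lay between 2.01 and 2.73 and the exact permutation p between 0.00794 and 0.0317. The value of 2.73 was that without SNEB5. Cows with the same number in the labels had been run on the same flow cells. With cows 1 to 5 compared by number, a replicate block, the difference was 2.12, with SNEB higher in 4 of 5 pairs and SNEB5 lower than MNEB5 (exact sign-flip p = 0.125, where 0.0625 is the smallest that 5 pairs can give).

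The sum of both genes was not shown to differ. It averaged 130.2 ± 34.9 CPM over the MNEB and 97.6 ± 39.0 CPM over the SNEB cows. On the log2 scale the difference was -0.47 (two-sided exact permutation test, p = 0.139; 0.139 after the same adjustment). The summed level ran from 99.1 to 183 CPM in MNEB and from 57.5 to 144 CPM in SNEB cows. SNEB1 and SNEB3 lay at 143 and 144 CPM, within the MNEB range, with a large part of it from ACACB. SNEB2, SNEB5 and SNEB6 lay at 69.7, 57.5 and 66.1 CPM, below every MNEB cow.

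Across the cows, the levels of the forms showed no relation that passed a test. Over all 11 cows, Pearson's r between their log2 CPM was -0.161 (permutation p = 0.631) and Spearman's rho was -0.382 (permutation p = 0.246). Within the 6 SNEB cows r was 0.362 (exact permutation p = 0.503) and rho 0.20 (exact permutation p = 0.714). After the group means were taken out, r over the 11 cows was 0.447 (permutation p = 0.168) and rho 0.455 (permutation p = 0.164). Over 4 such relations, with 8 p-values, the smallest adjusted p was 0.656. Without the 2 cows farthest from the median of ACACA, SNEB2 and SNEB6, r was 0.054 over the remaining 9, and within SNEB without SNEB1 and SNEB6 it was 0.357. The ratio of the forms was not shown to be related to the reads on genes (r = -0.049, permutation p = 0.886, and rho = 0.0909, permutation p = 0.796). Without the 2 cows farthest from the median of log2 reads, r was 0.0044.

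Libraries run on more than 1 lane give the spread between lanes and flow cells, and not that of RNA extraction or library preparation. In the 7 cows with 2 or 3 lanes, lanes of a cow differed at most 1.27-fold in ACACA and 1.77-fold in ACACB, in CPM from lane totals. In SNEB4, run on 3 lanes of flow cell A at different library concentrations, ACACB lay between 15.2 and 18.2 CPM and its share between 14.4% and 16.7%. In SNEB5 the low level of ACACB was found on both lanes, at 3.601 and 4.083 CPM.

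The 5 cows run on both flow cells B and C showed a shift between flow cells in the same direction. On flow cell C, ACACA was lower and ACACB higher than on flow cell B in 5 of 5 cows. The share of ACACB was 6.16% on flow cell B and 11.3% on C in MNEB1, 7.19% and 9.62% in MNEB5, and 32.2% and 40.2% in SNEB1. It was 5.93% and 7.32% in SNEB5, and 32.04% and 42.34% in SNEB6. The log2 ratio was higher on flow cell C by 0.56 on average, from 0.30 to 0.94 (two-sided exact sign-flip test, p = 0.0625, the smallest that 5 cows can give). Within a flow cell the group difference of the log2 ratio was 2.38 on the lanes of flow cell B (3 MNEB and 4 SNEB cows, exact permutation p = 0.114) and 1.78 on those of C (3 and 4 cows, exact permutation p = 0.143), where 35 splits allow no p below 0.0286. Flow cell A held 1 cow of each group, which differed by 1.89 on the log2 scale. The ratio was thus higher in SNEB on each flow cell, and passed within neither B nor C. Flow cells B and C share 5 cows and their libraries, so their differences are not independent of each other. Without the cows of flow cell A the difference was 2.32 (exact permutation p = 0.0397).

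**Figure D3:**
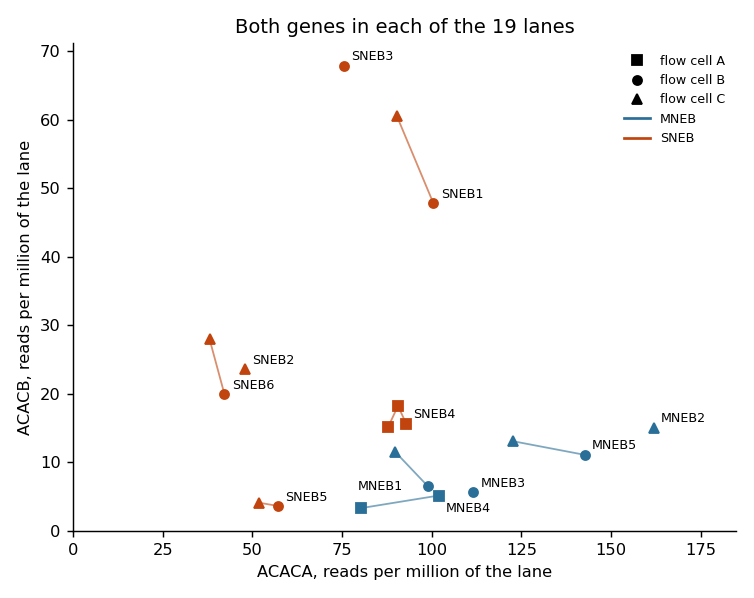
CPM from lane totals of ACACA (horizontal) and ACACB (vertical) in each of the 19 lanes, with lanes of 1 cow joined by a line, symbols for the flow cell and colours for the group. In the 5 cows with a lane on each of flow cells B and C, the point of flow cell C lies up and to the left, as ACACA was lower and ACACB higher there.

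Some features of the counting touch ACACA more than ACACB. RefSeq, on the assembly ARS-UCD2.0, places ACACA on chromosome 19 with C19H17orf78 and a pair of noncoding genes within its span, and ACACB on chromosome 17 with no other gene within its span. The strand setting of the counting was not given in the sources used here, so reads of genes that overlap ACACA on the other strand, if annotated, cannot be told apart or may have been dropped. Reads with more than 1 alignment had been removed, so a read shared by both carboxylase genes would be in neither count.

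Other genes of the pathway could be followed only where the study's gene list gave a name, which was 6 of 90 symbols in 7 lists. The study put these genes on its list for their change in these same cows, so their directions are not independent evidence. Of the 6 genes, 2 were called higher and 0 lower in SNEB cows by edgeR (0.33% and 0.215% of all genes tested, each direction). The median log2 fold change was -0.075 over the 6 and -0.0091 over all genes tested. The lists on biotin carboxylases and ketone body synthesis had 0 of 8 and 0 of 4 genes with an identifier.

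On the side of fatty acid synthesis, 1 of 17 genes was named. It was THRSP, a nuclear protein tied to lipogenic gene expression. THRSP ran from 7.09 to 30.9 CPM in MNEB cows (median 17.7), and from 1.07 to 24.6 CPM in SNEB cows (median 2.68), with SNEB5 the highest of its group at 24.6 CPM and the next at 4.59. Its log2 fold change was -1.47 (SE 0.67, edgeR adjusted p = 0.581), and without SNEB5 -2.78 (edgeR adjusted p = 0.0258). SNEB5 therefore lay in the MNEB range for both ACACB share and THRSP. For SLC22A5 and RXRG, described next, it lay with the SNEB cows, at 82.0 and 138 CPM, above every MNEB cow.

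On the side of fatty acid oxidation, 1 of 21 genes was named. SLC22A5, the carnitine transporter of the plasma membrane, rose in SNEB cows, with 98.1 ± 17.2 CPM against 51.6 ± 5.19 CPM in MNEB cows. MNEB cows lay between 43.75 and 57.9 CPM and SNEB cows between 82.0 and 119, with no overlap. The log2 fold change was 0.92 (SE 0.14, edgeR adjusted p = 0.00953).

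Of 19 regulators of lipogenic transcription, 2 were named. RXRG, a retinoid X receptor, a partner of the liver X receptors and peroxisome proliferator-activated receptors, rose from 49.95 ± 23.9 to 141 ± 29.0 CPM with no overlap (log2 fold change 1.49, SE 0.27, edgeR adjusted p = 0.0326). Without MNEB5 its adjusted p was 0.113. PPARGC1A, a coactivator induced by fasting, had 130.1 ± 61.5 and 195 ± 79.0 CPM and did not pass (log2 fold change 0.60, SE 0.30, edgeR adjusted p = 0.636).

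Among 13 genes of AMP-activated protein kinase and the phosphorylation of the carboxylases, 1 was named. This was BRCA1, whose protein binds phosphorylated ACACA and is best known for its part in DNA repair. It had 93.3 ± 24.2 CPM in MNEB and 54.2 ± 24.4 CPM in SNEB cows (log2 fold change -0.81, SE 0.27, edgeR adjusted p = 0.340), and 0.0863 without SNEB3, the highest of its group at 96.6 CPM. Only that 1 of the 11 fits with a cow left out called BRCA1. Of 8 insulin signalling genes, 1 was named. IRS1, an insulin receptor substrate, had 294 ± 57.6 and 176 ± 58.1 CPM (log2 fold change -0.75, SE 0.22, edgeR adjusted p = 0.253). With DESeq2, or with flow cells as a term in edgeR, the adjusted p of IRS1 was 0.0999. None of the fits with a cow left out called IRS1.

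**Figure D4:**
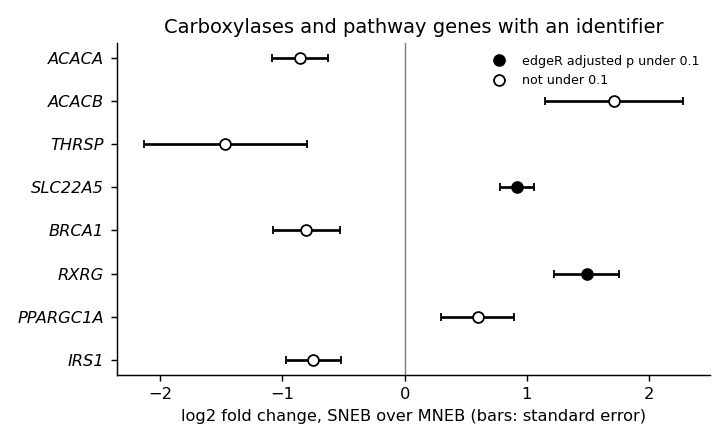
Log2 fold change, SNEB over MNEB, with its standard error, for both carboxylase genes and the 6 pathway genes that had an identifier. Filled points have an edgeR adjusted p under 0.1, which SLC22A5 (0.92) and RXRG (1.49) do and ACACA (-0.86) and ACACB (1.72) do not.

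A pair of genes was added after their values were seen, since their products act on possible sources of acetyl-CoA carbon. That supply was not measured here. SLC13A5, a citrate importer, had 132 ± 92.6 CPM in MNEB and 284 ± 72.8 CPM in SNEB cows (log2 fold change 1.12, SE 0.37, edgeR adjusted p = 0.320, and 0.0621 without MNEB2, the highest MNEB cow). PDK4, a kinase that keeps pyruvate from becoming acetyl-CoA, had 95.1 ± 47.0 and 205 ± 77.8 CPM (log2 fold change 1.11, SE 0.35, edgeR adjusted p = 0.291, 0.0883 without SNEB3, the lowest SNEB cow, and 0.0826 with DESeq2). For each of these genes only that 1 of the 11 fits with a cow left out passed. The highest edgeR adjusted p among the 11 was 0.585 for SLC13A5 and 0.542 for PDK4.

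Genes were also ranked by the likeness of their pattern, measured as Pearson's r of log2 CPM over the 11 cows among 10846 other genes with at least 20 reads per cow on average. These values are a description, and the cows share their groups and flow cells. ACACA was most like ENSBTAG00000006963 (r = 0.885), with r of 0.835 to 0.84 for the next 3 genes, of which ARHGEF5 (r = 0.835) has a name here. It was least like CANT1 (r = -0.921), a calcium-activated nucleotidase. ACACB was most like ENSBTAG00000026400 (r = 0.864), GDE1 (r = 0.859), a glycerophosphodiester phosphodiesterase, and 2 unnamed genes. It was least like ENSBTAG00000024255 (r = -0.899).

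With the group means taken out, the pattern that is left is that of single cows. ACACB was then most like ENSBTAG00000002912 and FOXA3, a hepatic transcription factor, both with r of 0.94. For ACACA the highest r was 0.828, and its lowest among genes with a name was again CANT1 (r = -0.831). Among genes with a name, a subset taken after the values were seen, the 2 lowest in r with ACACB were the same both ways. They were UGT2A3, a glucuronosyltransferase (-0.836 as measured and -0.755 with group means taken out), and FADS2, the delta-6 desaturase (-0.777 and -0.778).

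**Figure D5:**
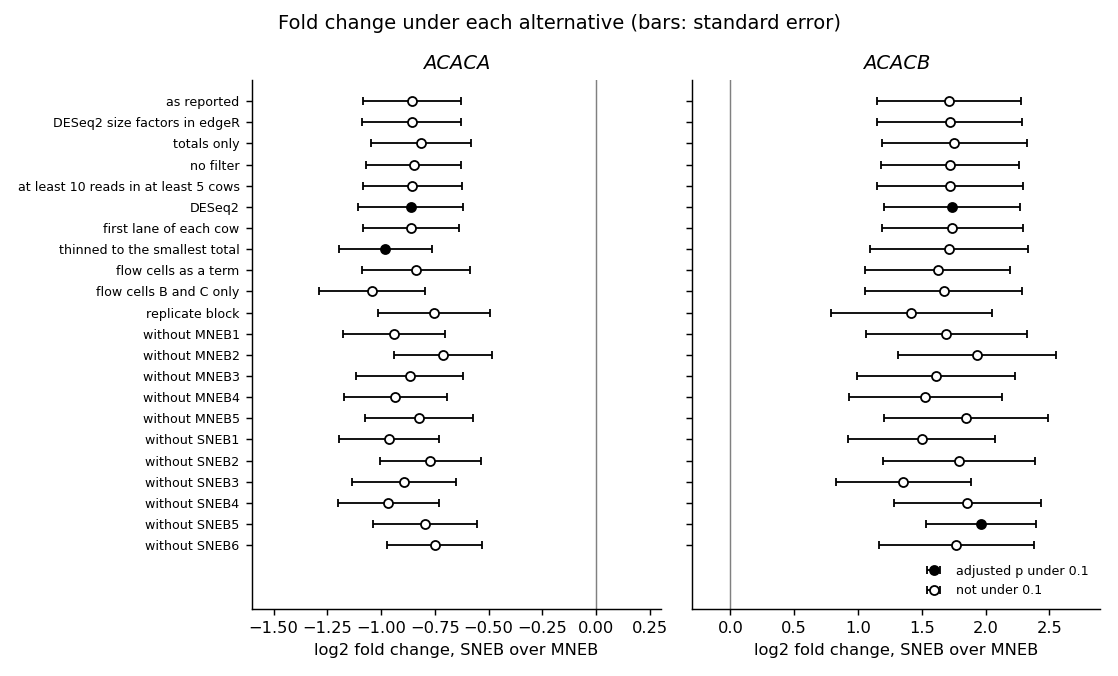
Log2 fold change, SNEB over MNEB, of ACACA (left) and ACACB (right) with its standard error under each way of fitting and with each cow left out. Filled points have an adjusted p under 0.1. The sign held throughout, from -1.04 to -0.71 for ACACA and from 1.36 to 1.96 for ACACB, while the call held only with DESeq2, for ACACA also with thinned counts, and for ACACB also without SNEB5.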

How the data were processed

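The deposited values were raw read counts per Ensembl gene and lane. Per the labels and the study's methods, the authors used Bowtie and the BCM4 assembly for alignment, kept reads with a single alignment, reduced reads that shared a position to 1, and made the counts, which are not normalized, with HTSeq-count (union mode). Reads that share a position being reduced to 1, high counts are held down. Here lanes of a cow were summed, and genes were tested with edgeR 4.0.16 in R 4.3.3 (TMM, quasi-likelihood test, Benjamini-Hochberg adjustment, limit 0.1). Each SE was taken as |log2 fold change| over the root of edgeR's F. DESeq2 1.42.0 was an alternative. Both were run on a single simulated set of counts, where the share of false calls was above the limit for each and larger for DESeq2. A single set does not give the expected rate. Single values were compared by exact permutation tests with SciPy 1.17.1, and plots were drawn with matplotlib 3.10.9. Flow cells follow the run of each lane.

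The genes, gene lists and tests were chosen with earlier results of these data known. Genes named were both carboxylases, every listed gene with an identifier, and those most and least like each carboxylase by Pearson's r. SLC13A5, PDK4 and the most and least like genes among those with a name were added after their values were seen. Names came from the name columns of the study's list of 413 changed genes. Of 45 marker symbols of hepatocytes, adipocytes, skeletal muscle, bile duct cells, stellate cells, leukocytes and erythroid cells, 1 had an identifier, MARCO of Kupffer cells, with 139 ± 63.0 CPM in MNEB and 90.4 ± 51.5 CPM in SNEB cows (edgeR adjusted p = 0.712), and the part of other cells in the results was not tested. Totals per cow ran from 1774011 to 6852142 reads, and intervals cover counting error only. RefSeq positions on ARS-UCD2.0 were used only to find which genes overlap the carboxylase genes, and gene lengths and sequences were not used here.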

Additional observations from a re-analysis of the deposited data

Results flagged for a closer look

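In 26 groups of 5 or 6 cows, 3 values lay apart from their group by Dixon's criterion, which chance flags in about 1 of 20 groups. THRSP was at 24.6 CPM in SNEB5, where the other SNEB cows had 1.07 to 4.59 CPM. BRCA1 was at 50.75 CPM in MNEB1, where the other MNEB cows had 96.4 to 108 CPM. PPARGC1A was at 239 CPM in MNEB3, where the other MNEB cows had 92.8 to 117.5 CPM. No value of ACACA, ACACB or their ratio was set apart in this way, the low ACACB of SNEB5 included.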

How the results depend on the processing

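ACACA kept its sign in 21 of 21 alternatives and ACACB in 21 of 21. With DESeq2 both were called (ACACA -0.86, adjusted p = 0.0349; ACACB 1.74, adjusted p = 0.0674), and with counts thinned to the smallest total ACACA was called (-0.98, edgeR adjusted p = 0.0749); the cause was not tested. With each cow left out, ACACA ran from -0.97 to -0.71 and ACACB from 1.36 to 1.96. All genes called numbered 76 as reported, 290 with DESeq2, 34 without the cows of flow cell A, and 40 to 125 with each cow left out (125 without MNEB1, 120 without SNEB3, 50 without MNEB3, 40 without MNEB5). The correlation of the forms changed sign with group means taken out (r = 0.447) and without SNEB2 and SNEB6 (r = 0.054). The log2 ratio fell short of its limit on lanes of flow cell B (2.38) or C (1.78) alone, settings chosen after seeing the data with fewer cows. Cows with the same number in the labels shared flow cells, but the labels do not say that a number marks a batch, and the numbers were not treated as pairs (2 of 5 pairs correlated over 0.1 in their deviations, and 1 of 5 MNEB cows correlated best with its own number). With the replicate block the ratio differed by 2.12 (higher in 4 of 5 pairs, exact sign-flip p = 0.125, where 0.0625 is the lowest possible), ACACA by -0.76 (edgeR adjusted p = 0.381), ACACB by 1.42 (edgeR adjusted p = 0.527), and 83 genes were called. The sum weighted by gene length was not run. Depth limits ACACB in MNEB cows, on 10 to 48 reads.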
